A study of Sus scrofa with 28 samples.

Results

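The genes followed here encode 3 integrin alpha subunits (ITGA2, ITGA6 and ITGAV) and 2 proteins of the focal adhesion that lie inside the cell (PTK2 and PARVA). They were read in loin (Longissimus dorsi) of 28 male piglets slaughtered at weaning, at 28 days of age. The DU×IB group held 14 crossbred piglets of Duroc boars and Iberian sows. The IB group held 14 purebred piglets of Iberian boars and Iberian sows. Each piglet had 1 array. The crossbred piglets came from fewer litters than the purebred ones and the labels name no litter, so littermates count as separate samples in every test, and an effect of litter cannot be told apart from that of genetic type. Members were all probe sets of the deposited table that carry one of the 5 symbols. Each symbol had 1 probe set, which makes 5 members of the 5226 probe sets in the table: Ssc.4985.1.A1_at for ITGA2, Ssc.25207.1.A1_at for ITGA6, Ssc.9451.1.S1_at for ITGAV, Ssc.6996.1.A1_at for PTK2 and Ssc.1189.1.S1_at for PARVA. ITGA2, ITGA6, ITGAV and PTK2 take their names from a list of genes chosen for differing between genetic types on these same arrays, so their direction is not independent evidence. PARVA takes its name from the annotation of the array and is not in that list. That annotation names no probe set of the other 4 genes, so further probe sets of theirs could be among the 2746 without a name.

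Integrins are pairs of an alpha and a beta subunit that span the cell membrane, with the matrix bound outside and actin inside. The alpha subunit sets much of the ligand choice. Together with the beta 1 subunit, ITGA2 makes a receptor for fibrillar collagens, ITGA6 one for laminins of the basement membrane, and ITGAV pairs with several beta subunits to bind matrix proteins with an RGD motif. When integrins cluster, focal adhesion kinase, encoded by PTK2, is recruited and starts phosphorylation at the adhesion site. Alpha-parvin, encoded by PARVA, joins integrin-linked kinase to actin. In skeletal muscle such adhesions tie fibres to their basement membrane and to tendon, and fibroblasts use them to hold and pull on the collagen they lay down.

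Levels are GCRMA values on the log2 scale, differences are DU×IB minus IB, and a difference passed the test when its Benjamini-Hochberg adjusted p over the 5226 probe sets was under 0.10 in limma. The arrays were hybridized in series of 16 and 12, which the labels do not name. Bacterial spike-in probe sets divide the arrays into sets of the same size, with a mean of 8.93 to 9.68 in 16 arrays (8 DU×IB and 8 IB) and of 6.19 to 7.01 in 12 (6 DU×IB and 6 IB). Array medians ran from 6.24 to 7.05 in DU×IB and from 6.01 to 7.02 in IB. They averaged 7.00 ± 0.05 in the series of 12 and 6.52 ± 0.19 in the series of 16 (SD). The first principal component, with 47.3% of the variance, had an r² of 0.796 with this division. Each difference is also given from a fit that blocks on the series, and for each series alone. Of 25 listed markers of skeletal muscle fibres, 3 had a named probe set in the table (MYL3, ATP2A1 and RYR1). They were among its high values, with a mean level per piglet of 12.2 to 13.4 in DU×IB and of 12.0 to 13.6 in IB. The table holds only probe sets that varied between arrays, and 2746 of them carry no gene name. A gene counts as measured here only where a probe set in the table carries its name. Any other listed gene was not analysed here.

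All 5 genes had higher mean levels in DU×IB than in IB, as did 52.5% of all probe sets. ITGA2 alone passed the test without a covariate, where 0.995% of all probe sets did (0.765% with a higher level in DU×IB). With the series as a block, ITGA2 and PTK2 passed, against 2.77% of all probe sets (2.07% with a higher level in DU×IB). In the series of 12 alone, ITGA2 and PTK2 passed, against 4.38% of all probe sets (2.39% with a higher level in DU×IB), and in the series of 16 none of the 5 did, against 0.172% (0.153% with a higher level in DU×IB). The median difference of the 5 genes was 0.43, and that of all probe sets was 0.02. Each of the 5 differences was above 0 in both series, which was so for 29.6% of all probe sets. Loin is a mixed tissue, and fewer cells of a type cannot be told apart from less RNA per cell.

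ITGA2, the subunit of the collagen receptor, had the largest difference of the 5. Its level ran from 3.97 to 7.35 with a median of 5.71 in DU×IB piglets, and from 3.50 to 5.96 with a median of 4.51 in IB piglets. Of the 14 DU×IB piglets, 12 lay above the median of IB and 6 above the highest IB piglet, while 5 IB piglets lay below the lowest DU×IB piglet. The mean was 5.77 ± 1.06 in DU×IB and 4.50 ± 0.85 in IB (SD, n = 14 each), a difference of 1.27 ± 0.34 (SE, 95% interval 0.57 to 1.97), or 2.41-fold. This difference passed the test (limma adjusted p = 0.0889), and did so more clearly with the series as a block (1.27 ± 0.30, adjusted p = 0.0202). It was 1.10 ± 0.42 in the series of 16 (adjusted p = 0.830) and 1.49 ± 0.39 in the series of 12 (adjusted p = 0.0902). The levels of ITGA2 are low for this table, in which 10% of values lie under 4.00, and 1 DU×IB and 5 IB piglets had less than 4. The call without a covariate was near the threshold. It held in 9 of 28 fits with 1 piglet left out and was lost without any one of DU×IB replicates 2, 4, 5, 7, 10, 11, 12, 13 and 14 or IB replicates 1, 2, 3, 5, 6, 8, 9, 11, 12 and 13 (adjusted p of 0.0304 to 0.173 over the 28 fits). With the series as a block it held in 28 of 28 (adjusted p of 0.00646 to 0.0426).

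ITGA6, the subunit of the laminin receptor, ran from 8.87 to 11.0 with a median of 9.87 in DU×IB, and from 8.93 to 10.1 with a median of 9.44 in IB. The groups overlapped over most of their range, with 11 of 14 DU×IB piglets above the IB median, 5 above the highest IB piglet and no IB piglet below the lowest DU×IB one. The means were 9.91 ± 0.65 in DU×IB and 9.48 ± 0.35 in IB (SD, n = 14 each). The difference of 0.43 ± 0.21 (SE, 95% interval 0.01 to 0.85) did not pass the test (adjusted p = 0.580), nor with the series as a block (0.43 ± 0.15, adjusted p = 0.171). It measured 0.22 ± 0.20 in the series of 16 and 0.70 ± 0.22 in the series of 12 (adjusted p = 0.997 and 0.107). In DU×IB its level was 10.4 ± 0.46 in the series of 12 and 9.51 ± 0.45 in the series of 16, and in IB 9.73 ± 0.27 and 9.29 ± 0.28, and the 3 highest values came from DU×IB piglets of the series of 12 (replicates 11, 12 and 13).

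ITGAV, the subunit of the RGD-binding receptors, ran from 7.95 to 9.25 with a median of 8.47 in DU×IB, and from 6.61 to 9.08 with a median of 8.31 in IB. Only 8 of 14 DU×IB piglets lay above the IB median, and the lowest value belonged to IB replicate 3, whose array also had the lowest median (6.01). The difference of 0.33 ± 0.21 (SE, 95% interval -0.10 to 0.76) had the largest p of the 5 genes (adjusted p = 0.824, or 0.309 with the series as a block). Its level differed more between series than between genetic types. ITGAV was 8.98 ± 0.24 in the series of 12 and 8.19 ± 0.21 in the series of 16 among DU×IB piglets, and 8.65 ± 0.28 and 7.86 ± 0.59 among IB piglets. Within genetic type and series it also followed the array median, with r = 0.872 and rho = 0.831 (permutation p = 1e-05 for both, the smallest that 100000 permutations can give, adjusted p = 0.0001 over 10 such relations). That r was 0.793 without the 2 farthest arrays, 0.924 in the series of 16 and 0.677 in the series of 12. With the spike-in mean of the array ITGAV had r = -0.608 and rho = -0.532 (permutation p = 0.00064 and 0.00625, adjusted p = 0.0032 for r), which was -0.696 without DU×IB replicate 9 and IB replicate 9, -0.802 in the series of 16 and -0.182 in the series of 12. With the arrays centred on their medians the difference was 0.30 ± 0.13 (adjusted p = 0.460). The part of the array median and of the spike-in level in the values of ITGAV was not tested further. The share of all probe sets that followed the array median as closely was not counted. For the other 4 genes r with the array median lay between -0.108 (PARVA) and 0.364 (ITGA2), with no adjusted p under 0.10.

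**Figure D1:**
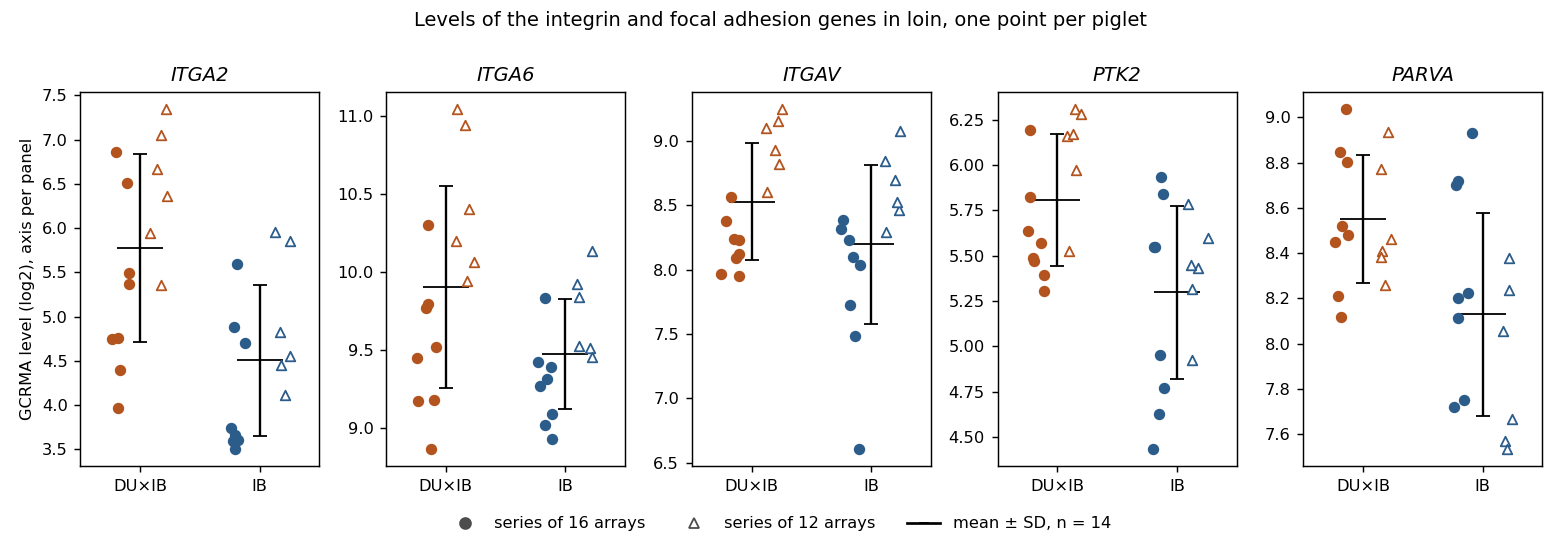
Level of each gene (GCRMA, log2, an axis for each panel) in 14 DU×IB piglets, left, and 14 IB piglets, right. Filled circles are arrays of the series of 16, open triangles those of the series of 12, and black lines give the mean ± SD. ITGA2 and PTK2 each had 6 DU×IB piglets above the highest IB piglet, and PARVA had 7 IB piglets below the lowest DU×IB piglet.

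Of the proteins inside the cell, PTK2, focal adhesion kinase, ran from 5.30 to 6.31 with a median of 5.73 in DU×IB, and from 4.43 to 5.94 with a median of 5.44 in IB. There were 12 of 14 DU×IB piglets above the IB median, 6 above the highest IB piglet, and 5 IB piglets below the lowest DU×IB piglet, 4 of which belonged to the series of 16 (replicates 3, 5, 6 and 8). Its mean was 5.81 ± 0.36 in DU×IB and 5.30 ± 0.47 in IB (SD, n = 14 each). The difference of 0.51 ± 0.18 (SE, 95% interval 0.14 to 0.88), or 1.42-fold, did not pass the test without a covariate (adjusted p = 0.287) and passed with the series as a block (0.51 ± 0.15, adjusted p = 0.0929). Within the series it was 0.40 ± 0.23 in the arrays of the series of 16 (adjusted p = 0.997) and 0.65 ± 0.18 in those of the series of 12 (adjusted p = 0.0918). The blocked call held in 9 of 28 fits with 1 piglet left out, those without DU×IB replicates 1, 3, 6 or 13 or IB replicates 1, 2, 4, 7 or 14, and was lost in the rest (adjusted p of 0.0399 to 0.158).

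PARVA, alpha-parvin, is the only one of the 5 that the study had not listed. It ran from 8.12 to 9.04 with a median of 8.47 in DU×IB, and from 7.53 to 8.93 with a median of 8.16 in IB. There were 13 of 14 DU×IB piglets above the IB median, and 7 of 14 IB piglets lay below the lowest DU×IB piglet, but only 2 DU×IB piglets lay above the highest IB piglet. Its spread was wider in IB (SD 0.28 in DU×IB and 0.45 in IB). The difference of 0.42 ± 0.17 (SE, 95% interval 0.08 to 0.76), or 1.34-fold, did not pass the test (adjusted p = 0.404, or 0.156 with the series as a block). It was 0.26 ± 0.21 in the series of 16 and 0.63 ± 0.19 in the series of 12 (adjusted p = 0.997 and 0.105). Counted over genes, at least 11 of 14 DU×IB piglets lay above the IB median for ITGA2, ITGA6, PTK2 and PARVA, and 8 for ITGAV. At least 11 did so for 11% of all probe sets. All but PARVA are in the list chosen for differing on these arrays, so their counts are not independent evidence.

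The difference was larger in the series of 12 than in the series of 16 for ITGA2, ITGA6, PTK2 and PARVA, and about the same for ITGAV. A test of that change, the interaction of genetic type and series, gave unadjusted p of 0.122 (ITGA6) to 0.985 (ITGAV) and adjusted p of 0.801 or more in limma. No probe set of the table passed it, although 333 (6.37%) had an unadjusted p under 0.05.

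**Figure D2:**
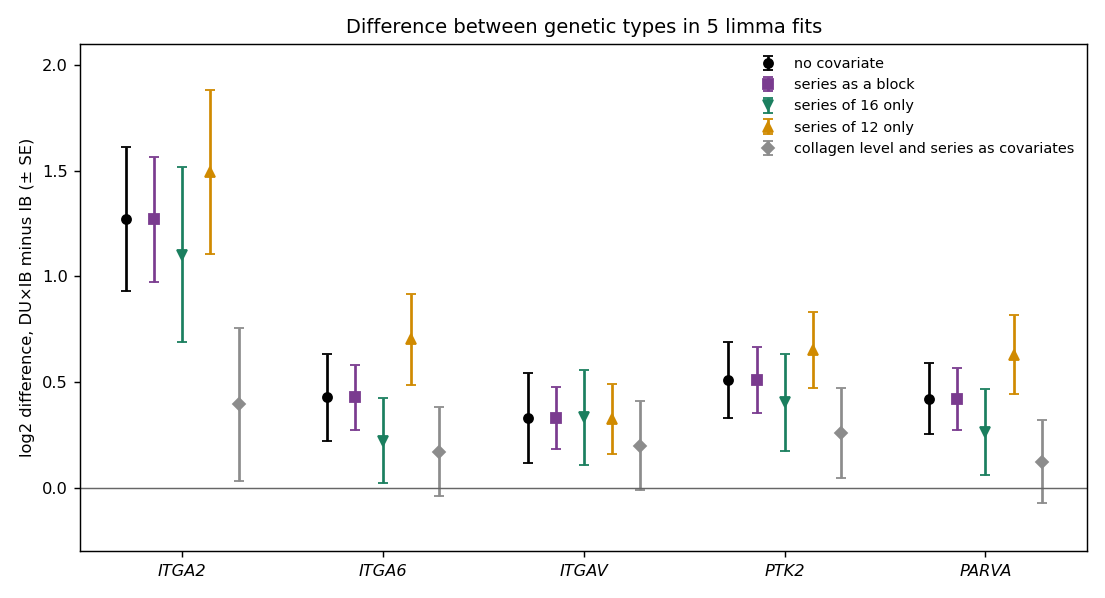
Difference between genetic types (log2, DU×IB minus IB, ± SE) of each gene in 5 limma fits: without a covariate, with the hybridization series as a block, in each series alone, and with the collagen level and the series as covariates. Every point lies above 0, from 0.12 for PARVA with the collagen level as a covariate to 1.49 for ITGA2 in the series of 12.

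No other integrin subunit, focal adhesion adaptor, dystrophin-linked anchor or laminin that was measured passed the test. Of 20 other integrin subunits listed, only ITGB1 had a named probe set in the table. ITGB1, the beta 1 subunit that pairs with ITGA2 and ITGA6, had 11.5 ± 0.62 in DU×IB and 11.3 ± 0.71 in IB (SD). Its difference was 0.20 ± 0.25 (SE, adjusted p = 0.998, or 0.686 with the series as a block). Of 47 listed adaptors and kinases of the focal adhesion, 9 were measured and none passed, with or without the block. Their median difference was 0.14, with a range of -0.20 (ROCK2, a kinase that drives actomyosin contraction) to 0.28 (CAV1, the coat protein of caveolae). TLN1, talin, which links the integrin tail to actin, differed by 0.21 (adjusted p = 0.998). Of the dystrophin-linked anchors, which tie fibres to laminin without integrins, 3 of 14 were measured (UTRN, SNTB1 and DTNB), and their differences of 0.13 to 0.46 did not pass. The largest was that of UTRN, which is in the list the study chose on these arrays.

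Among ligands, 3 of 15 listed laminins and basement membrane proteins were measured, the laminin chains LAMB1, LAMB2 and LAMC1. They differed by 0.08 to 0.27, and none passed. Of 25 listed RGD and matricellular ligands 12 were measured, 3 passed without a covariate and 5 with the block, all 5 higher in DU×IB and all 5 in the list the study chose on these arrays. FBN2, a fibrillin of microfibrils, was 0.96 higher in DU×IB (adjusted p = 0.0298) and THBS2, a thrombospondin that limits vessel growth, 1.26 higher (adjusted p = 0.0353). EGFL6 was 0.65 higher (adjusted p = 0.0961). POSTN, periostin, which binds ITGAV, was 1.29 higher (adjusted p = 0.141, or 0.0634 with the block). SPP1, osteopontin, another ligand of ITGAV, had a difference of -1.36 that did not pass (adjusted p = 0.536). Of the 12, 8 had a higher mean in DU×IB and 4 a lower one (SPP1, CYR61, THBS1 and MFGE8), and none of these 4 passed.

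Collagens, whose fibrillar members are ligands of ITGA2, were measured by 7 genes, not all of them fibrillar. Of the 7, 6 were in the list of the study. All 7 had a higher mean in DU×IB. COL12A1, which coats collagen fibrils, differed by 1.52 ± 0.37 (SE, adjusted p = 0.0432), and COL14A1, of the same kind, by 0.70 ± 0.17 (adjusted p = 0.0456). COL1A1, a chain of the main fibrillar collagen of muscle, differed by 1.21 ± 0.37 (adjusted p = 0.187, or 0.0270 with the series as a block). COL16A1, COL5A1 and COL24A1 differed by 0.60, 0.73 and 0.56 and passed only with the block (adjusted p = 0.0510, 0.0237 and 0.0887). COL4A2, a basement membrane chain and the only collagen outside the list of the study, differed by 0.30 ± 0.23 and did not pass (adjusted p = 0.927, or 0.455 with the block).

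To ask how the 5 genes followed collagen from piglet to piglet, a collagen level was taken for each piglet as the mean log2 level of the 7 collagens. It ran from 8.46 to 9.64 with a median of 8.98 in DU×IB, and from 6.97 to 9.07 with a median of 8.33 in IB. Since the collagen level and the genes differed between genetic types and series, both were first centred within each of the 4 combinations of genetic type and series. ITGA2 followed the collagen level most closely, with r = 0.537 (permutation p = 0.00416) and rho = 0.502 (p = 0.00974) over 28 piglets. Without the 2 piglets farthest from the median collagen level (IB replicates 9 and 12) r was 0.529 (p = 0.00968). It was 0.600 in the series of 16 (p = 0.0171) and 0.530 in the series of 12 (p = 0.0977), and leaving out single piglets gave 0.469 to 0.631. In limma, with genetic type and series in the model, ITGA2 rose by 1.09 ± 0.32 (SE) per log2 unit of collagen and passed over all 5226 probe sets (adjusted p = 0.0668). In all 260 probe sets passed (4.98%), 185 of them (3.54%) with a positive slope, and 2.91% of the table had a higher r with the collagen level than ITGA2.

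The slopes of all 5 genes were above 0, as were those of 46.1% of all probe sets, and 4 of the 5 did not pass. PARVA had r = 0.380 (p = 0.0628) and rho = 0.417 (p = 0.0385), with a slope of 0.37 ± 0.17 (adjusted p = 0.262). Its r was 0.515 (p = 0.0121) without IB replicates 9 and 12, 0.614 in the series of 16 and 0.172 in the series of 12. PTK2 had r = 0.306 (p = 0.103) and rho = 0.398 (p = 0.0400), 0.362 without those 2 piglets, 0.431 in the series of 16 and 0.209 in the series of 12 (slope 0.32 ± 0.19, adjusted p = 0.396). ITGA6 had r = 0.284 (p = 0.128) and rho = 0.236 (p = 0.240), 0.181 without the 2 piglets, and 0.350 and 0.241 in the series of 16 and of 12 (slope 0.32 ± 0.19, adjusted p = 0.376). ITGAV had r = 0.191 (p = 0.322) and rho = 0.198 (p = 0.335), which was 0.03 without the 2 piglets, -0.03 in the series of 16 and 0.573 in the series of 12 (slope 0.16 ± 0.19, adjusted p = 0.687). Over these 5 relations the adjusted permutation p of r was 0.0208 for ITGA2 and 0.157 or more for the rest. That of rho was 0.0487 for ITGA2, 0.0667 for both PTK2 and PARVA, and 0.30 or more for ITGA6 and ITGAV. The collagen level had r = 0.04 and rho = -0.02 with the array median (permutation p = 0.809 and 0.897).

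**Figure D3:**
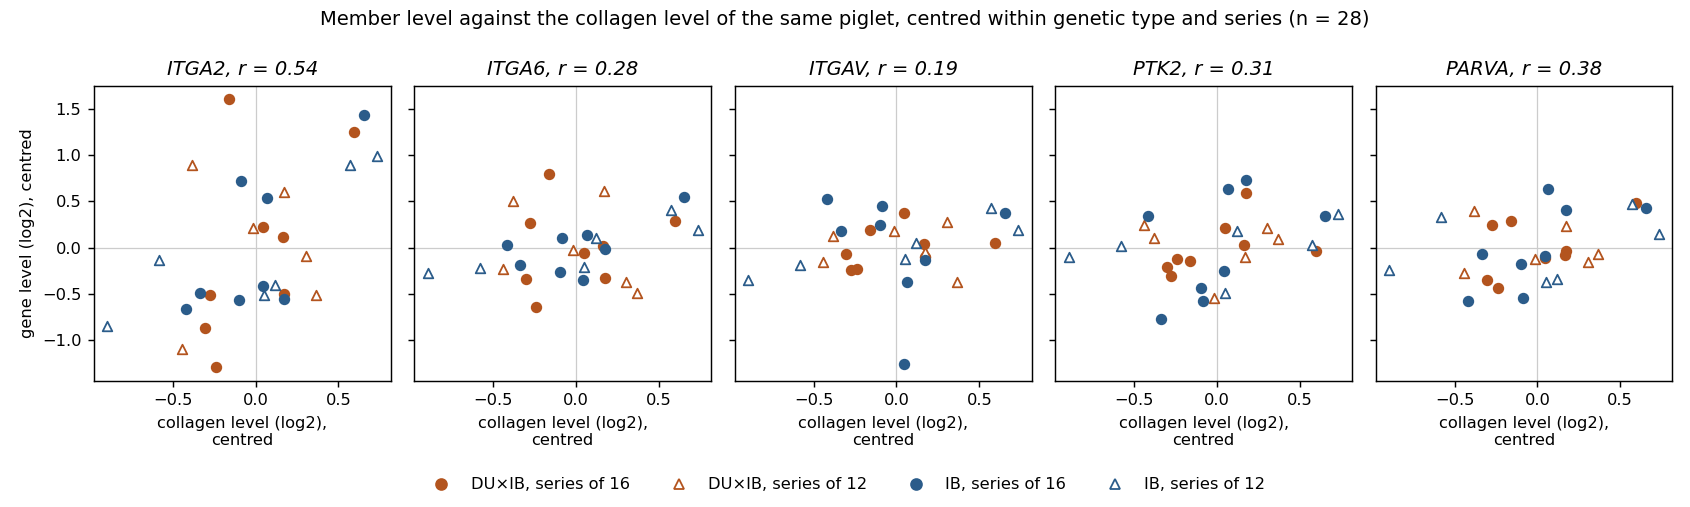
Level of each gene against the collagen level of the same piglet (mean log2 level of 7 collagens), both centred within genetic type and hybridization series, with DU×IB in brown, IB in blue, filled circles for the series of 16 and open triangles for the series of 12. Points of ITGA2 slope upward (r = 0.54), and those of ITGAV show little slope (r = 0.19).

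Within DU×IB piglets r with the collagen level was 0.332 for ITGA2 (p = 0.257) and -0.06 for ITGA6 (p = 0.842), whereas within IB it was 0.732 (p = 0.00349) and 0.719 (p = 0.00426). The slope of ITGA2 was 0.93 ± 0.62 in DU×IB and 1.18 ± 0.41 in IB, and that of ITGA6 was -0.09 ± 0.35 in DU×IB and 0.42 ± 0.24 in IB (SE). A direct test of the slope difference did not pass. The difference (DU×IB minus IB) was -0.26 ± 0.74 for ITGA2 (p = 0.732) and -0.50 ± 0.43 for ITGA6 (p = 0.247), with an adjusted p of 0.999 for each of the 5 genes in limma. No probe set passed this test, while 181 (3.46%) were below 0.05 before adjustment.

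With the collagen level and the series both in the model, the difference between genetic types was 0.39 ± 0.36 for ITGA2, 0.17 ± 0.21 for ITGA6, 0.20 ± 0.21 for ITGAV, 0.26 ± 0.21 for PTK2 and 0.12 ± 0.20 for PARVA (SE). None of the 5 passed (limma adjusted p = 0.999 each), and 12 probe sets of the table did (0.23%, 0.172% with a higher level in DU×IB). The collagen level and genetic type are correlated in these piglets, and this fit was added after the data had been seen.

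The 5 genes were also set against each of the 7 collagens, which makes 35 relations. ITGA2 followed COL12A1 most closely, with r = 0.571 and rho = 0.616 (permutation p = 0.00232 and 0.00086, adjusted p = 0.0406 for r). Its r with COL12A1 was 0.580 without the 2 farthest piglets (IB replicates 9 and 12), 0.691 in the series of 16 and 0.517 in the series of 12. With COL1A1 its r was 0.342 (p = 0.0774, adjusted p = 0.301), and with COL1A1 in place of the mean of 7 collagens its slope of 0.36 ± 0.18 did not pass over the table (limma adjusted p = 0.229). The r of ITGA2 was 0.293 with COL5A1 and 0.0439 with COL24A1 (adjusted permutation p = 0.371 and 0.92). With COL16A1 and COL4A2 it was 0.434 and 0.311 (adjusted permutation p = 0.171 and 0.371). PARVA and ITGA6 had their highest r with COL4A2 of the basement membrane. For PARVA it was 0.586 with rho = 0.622 (permutation p = 0.00214 and 0.00117, adjusted p = 0.0406 for r), and 0.666 without the 2 farthest piglets (DU×IB replicate 3 and IB replicate 12), 0.638 in the series of 16 and 0.477 in the series of 12. For ITGA6 it was 0.501 with rho = 0.606 (permutation p = 0.00836 and 0.00089, adjusted p = 0.0975 for r), and 0.518, 0.469 and 0.560 under the same 3 restrictions. By r no other of the 35 relations had an adjusted p under 0.10. By rho ITGAV with COL12A1 (rho = 0.524, adjusted permutation p = 0.0370, r = 0.370) and ITGA2 with COL14A1 (rho = 0.485, adjusted permutation p = 0.0995, r = 0.441) also lay under it, and neither did so without IB replicates 9 and 12 (rho = 0.449 and 0.463, adjusted permutation p = 0.121 for both).

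The 5 genes did not vary as a single group. ITGA2 and ITGA6 rose and fell together from piglet to piglet, with r = 0.826 and rho = 0.743 after centring within genetic type and series (permutation p = 1e-05 and 6e-05, adjusted p = 0.0001 for r over 10 pairs). This r was 0.823 without the 2 piglets farthest in ITGA2 (DU×IB replicates 11 and 12), 0.858 in the series of 16, 0.783 in the series of 12, 0.836 within DU×IB and 0.838 within IB. Only 1 of the other 5225 probe sets had a higher r with ITGA2 than ITGA6 had, and 4 had a higher r with ITGA6 than ITGA2 had. PARVA went with both. Its r was 0.623 with ITGA2 (rho = 0.603, permutation p = 0.00089 and 0.00169, adjusted p = 0.00297) and 0.594 with ITGA6 (rho = 0.554, permutation p = 0.00064 and 0.00215, adjusted p = 0.00297). Without DU×IB replicates 11 and 12 these were 0.581 and 0.538, in the series of 16 they were 0.543 and 0.577, and in the series of 12 they were 0.792 and 0.632. Of the table, 1.76% of probe sets had a higher r with ITGA2 than PARVA had, and 2.6% a higher r with ITGA6. Within DU×IB r of PARVA was 0.818 with ITGA2 and 0.842 with ITGA6, and within IB 0.498 and 0.420, which did not pass there (adjusted p = 0.169 and 0.256). Whether these differ between genetic types was not tested.

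ITGAV was more loosely tied to the other integrins. Its r was 0.403 with ITGA2 (rho = 0.465, permutation p = 0.0317 and 0.0159, adjusted p = 0.0633) and 0.401 with ITGA6 (rho = 0.403, permutation p = 0.0177 and 0.0309, adjusted p = 0.0442). Of the table, 12.5% and 10.4% lay closer to ITGA2 and to ITGA6 than ITGAV did. From the side of ITGAV, 36.1% of the table had a higher r with it than ITGA2 had, and 36.4% than ITGA6 had. The r of ITGAV with ITGA2 was 0.410 without DU×IB replicates 11 and 12, 0.30 in the series of 16 and 0.715 in the series of 12. With ITGA6 it was 0.453, 0.364 and 0.528 in the same order. With the arrays centred on their medians both relations were weaker (r = 0.264 and 0.123, adjusted p = 0.379 and 0.544). The first lost its call without any one of DU×IB replicates 5 and 6 or IB replicates 6, 10 and 12 (r of 0.357 to 0.484 over the 28), and the second without IB replicate 3 (r = 0.374, adjusted p = 0.103). PTK2 stood apart from the integrins, with r of 0.0931 to ITGA2, 0.103 to ITGA6 and -0.00235 to ITGAV, and its highest r among the 5 was 0.371 with PARVA (rho = 0.345, permutation p = 0.108 and 0.116, adjusted p = 0.180).

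**Figure D4:**
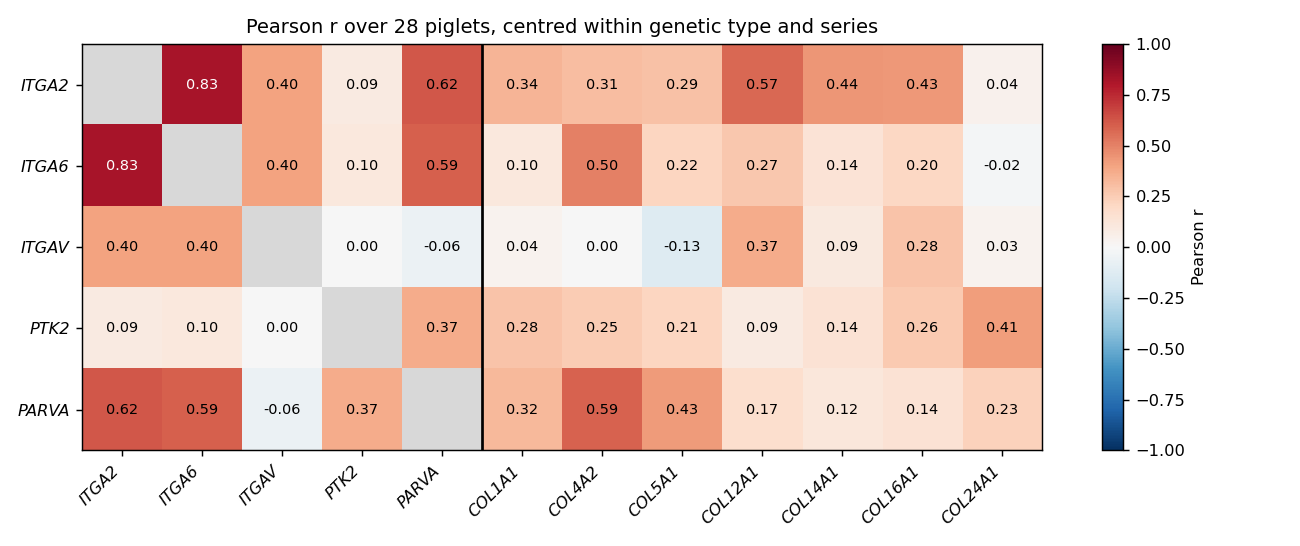
Pearson r over 28 piglets, centred within genetic type and hybridization series, between the 5 genes (left of the black line) and between each of them and 7 collagens (right of it). Red is positive, blue negative and gray a gene with itself. The pair ITGA2 and ITGA6 is the darkest cell (0.83), followed by ITGA2 and PARVA (0.62).

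Among 2115 named genes, those nearest to each of the 5 by the same r differed from gene to gene. All points share arrays and series, and no test was made of these ranks. For ITGA2 they were ITGA6 (0.826), TPM4, a tropomyosin of the non-muscle cytoskeleton (0.769), and TMSB10, a thymosin that binds actin monomers (0.749). For ITGA6 they were C4H1orf54 (0.866), ITGA2 and TMSB10 (0.801). For PARVA they were AKR1A1, an aldo-keto reductase (0.857), FSCN1, which bundles actin (0.777), and SUOX, sulfite oxidase (0.773). For PTK2 the values were lower, with FAH, an enzyme of tyrosine breakdown (0.705), DDX6, an RNA helicase (0.703), and IDH1, the cytosolic isocitrate dehydrogenase (0.584). For ITGAV they were TSPAN12, a tetraspanin of the membrane (0.903), NDUFB5, a subunit of respiratory complex I (0.894), and RAB1A, a GTPase of early secretory traffic (0.894). ITGAV is also the gene of the 5 that followed the array median.

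Markers of other cell types were read in the same piglets. Of 10 listed tendon markers 4 were measured (KERA, FMOD, THBS4 and CILP), and 2 of the 4 passed, both higher in DU×IB and both in the list chosen on these arrays. KERA and FMOD, proteoglycans of collagen fibrils, were each 1.93 higher (adjusted p = 0.00529 and 0.00858). THBS4, a thrombospondin, passed only with the series as a block (difference 0.65, adjusted p = 0.238, or 0.0887 with the block). CILP had the opposite sign and did not pass, with a difference of -0.42 (adjusted p = 0.724), or -0.72 in the series of 16 and -0.02 in the series of 12. The mean of the 4 ran from 9.47 to 11.4 in DU×IB and from 8.19 to 10.8 in IB. It went with ITGA2 after centring, with r = 0.639 and rho = 0.676 (permutation p = 0.00061 and 0.0003, adjusted p = 0.0152 for r over 50 relations of the 5 genes and 10 lists). That r was 0.633 without IB replicates 9 and 12, 0.722 in the series of 16 and 0.561 in the series of 12. KERA, FMOD and THBS4 also followed the collagen level (slopes 2.05, 2.37 and 0.96, limma adjusted p = 0.000143, 7.83e-07 and 0.00185). CILP did not (slope 0.14, adjusted p = 0.858). The relations of ITGA2 to the tendon mean and to the collagen level were not separated. Of the same 50 relations, the mean of the 9 measured adaptors and kinases of the focal adhesion went with ITGA2 by r (0.536, adjusted permutation p = 0.0647) and not by rho (0.437, adjusted permutation p = 0.156). This r was 0.590 without IB replicates 7 and 10, 0.55 in the series of 16, 0.532 in the series of 12, and 0.316 with the arrays centred on their medians (adjusted permutation p = 0.445). The mean of the 3 dystrophin-linked anchors went with ITGAV by r (0.524, adjusted permutation p = 0.0647) and not by rho (0.461, adjusted permutation p = 0.156). It was 0.313 without DU×IB replicate 3 and IB replicate 3, 0.548 in the series of 16, 0.441 in the series of 12, and -0.05 with the arrays centred on their medians. TNMD and SCX, which define tendon cells, were not analysed here. The part of tendon genes in the ITGA2 difference was not tested. Of 14 fibroblast markers 2 were measured (THY1 and DPP4, mean level 7.41 to 8.25 in DU×IB and 6.62 to 7.82 in IB), with differences of 0.71 and 0.34 that did not pass. Of 13 endothelial markers 5 were measured, with differences of -0.50 to 0.28, and of 15 macrophage markers 8, with differences of -0.67 to -0.17, and none of either passed. Adipocyte, satellite cell and muscle fibre markers gave no call among 9 measured genes. Of 10 nerve markers 2 were measured (NRXN3 and MBP). NRXN3, a presynaptic adhesion protein in the list chosen on these arrays, was lower in DU×IB (difference -0.83, adjusted p = 0.00801). MBP differed by -0.02 (adjusted p = 0.998), with 0.40 in the series of 16 and -0.57 in the series of 12. The mean of the muscle fibre markers ran against ITGAV, with r = -0.683 and rho = -0.574 (permutation p = 0.00061 and 0.00414, adjusted p = 0.0152 for r and 0.103 for rho). It was -0.487 without DU×IB replicate 3 and IB replicate 3 (adjusted p = 0.174), -0.775 in the series of 16 and -0.274 in the series of 12, and the part of the array median in this relation was not tested.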

How the data were processed

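Loin RNA of 28 piglets was measured on the Affymetrix Porcine Genome Array. Per the labels and the methods, the authors read the arrays with GCOS and deposited GCRMA log2 values, with background corrected by probe sequence, quantile normalization and 1 summary value a probe set. Quantile steps limit shifts common to all genes. The authors kept 5226 probe sets, all of which met their variation filter when checked (over 20% of values at least 1.5-fold from the median). No detection calls were used here, and precision is limited by how many arrays there were. Names came from the study's list for 271 probe sets and from array annotation for 2209, and 2746 had none.

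Genetic types were taken from the sample titles and compared with limma 3.58.1 in R 4.3.3 (lmFit and eBayes, no covariate, two-sided), with Benjamini-Hochberg adjustment over all probe sets and a threshold of 0.10. The study used a mixed model with array, genetic type and series. The series was recovered from 10 spike-in probe sets (bioB and bioC), parted at a gap of 1.92. Correlations were tested with 100000 permutations within genetic type and series (Python 3.11.15, numpy 2.4.6, pandas 2.3.3, matplotlib 3.10.9). Scripts were tested on simulated data.

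The members and lists were chosen with earlier results of these data known. Named are the 5 members, all measured collagens, the 3 named genes nearest to each member, and up to 4 genes of a list with an adjusted p under 0.10 with or without the series block. Any other gene was picked with its values in view. A gene with several probe sets was read by the one of highest mean. The alternatives tried were dim probe sets left out (mean under 4 in both genetic types), array weights, a robust prior with a trend, quantile normalization, centring of arrays on their medians, the series as a block or alone, the replicate block, a threshold of 0.05, other collagen measures, Spearman correlation, and each piglet left out. No sequence is given, since no sequence table was at hand.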

Additional observations from a re-analysis of the deposited data

How the results depend on the processing

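The differences of all 5 genes stayed above 0 in every fit run. The count of probe sets past the threshold, 52 in the fit without a covariate (40 higher in DU×IB, 12 lower), was 145 in the series block (108 and 37), 122 in that block after array median centring (81 and 41), 9 in the series of 16, 229 in the series of 12, 96 with array weights, 34 at a threshold of 0.05, and 12 with the collagen level and series as covariates. It was 34 to 66 with 1 piglet left out, lowest without DU×IB replicate 7. With array median centring, quantile normalization, a trended and robust prior or dim probe sets left out it stayed within 1.5 times of 52. The ITGA2 difference of 1.27 missed the stricter threshold of 0.05, and failed as 1.10 in the series of 16 and 0.39 with the collagen level and series as covariates. With 1 piglet left out it was 1.15 to 1.41 and held in 9 of 28. PTK2 passed at 0.51 with the series block, 0.65 in the series of 12 and 0.60 with array weights, and did not pass at 0.48 in the series block after array median centring (adjusted p = 0.156) or at 0.51 in the replicate block (adjusted p = 0.116). In the series block, 1 piglet left out gave 0.45 to 0.57 for PTK2, 0.37 to 0.49 for ITGA6 (passing without DU×IB replicate 6 or IB replicate 4) and 0.38 to 0.48 for PARVA (passing without IB replicates 4 or 7). The cause of these changes was not tested.

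The replicate numbers in the titles do not pair piglets. Deviations from the group means correlated at 0.02 to 0.730 between piglets of the same number (12 of 14 over 0.1, 2 of 14 best with their own number), and at -0.326 to 0.538 after centring on the series (2 over 0.1). The replicate block gave 145 probe sets, with ITGA2 past the threshold (adjusted p = 0.0404). It gave 4 probe sets related to the collagen level, against 260 without it, with ITGA2 not past (slope 1.01, adjusted p = 0.547). Array median centring gave 1055 such probe sets.

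Relations past the threshold with the collagen level were 1 of 5 genes, against 5 when centred within series only, 3 with array median centring or Spearman, 2 without the 2 farthest piglets, in the series of 16, within IB or with COL4A2 alone, and 0 in the series of 12, within DU×IB or with COL1A1 alone (1 to 3 with 1 piglet left out). ITGA2 failed at 0.530 in the series of 12, 0.332 within DU×IB, 0.342 with COL1A1 alone and 0.311 with COL4A2, the only collagen outside the list of the study. Centred within series only, which keeps the difference between genetic types, r passed at 0.566 for ITGA6, 0.420 for ITGAV, 0.596 for PTK2 and 0.622 for PARVA. With genetic type centred too, these were 0.284, 0.191, 0.306 and 0.380 and did not pass. Of the 5 genes 4, and of the 7 collagens 6, were listed for differing between genetic types on these arrays. A positive r that keeps this difference was therefore favoured by the choice of genes. The share of all probe sets that passed so was not counted. PARVA also passed with array median centring (0.474), without the 2 farthest piglets (0.515), in the series of 16 (0.614), with Spearman (0.417) and with COL4A2 (0.586), PTK2 with array median centring (0.385) and Spearman (0.398), and ITGA6 within IB (0.719) and with COL4A2 (0.501). With 1 piglet left out r was 0.195 to 0.372 for ITGA6 (passing without DU×IB replicates 5, 10 or 11), 0.249 to 0.363 for PTK2 (without IB replicate 13) and 0.317 to 0.479 for PARVA (without DU×IB replicates 5, 10 or 11 or IB replicates 9 or 13). Signs turned for ITGA6 within DU×IB (-0.0608) and for ITGAV with array median centring (-0.000462), in the series of 16 (-0.0275) and with COL4A2 (-0.000506).

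Pairs of genes past the threshold were 5 of 10, against 8 centred within series only, 3 with array median centring, 2 in the series of 16 and 1 within IB. The count of 8 keeps the difference between genetic types and was favoured by the choice of genes in the same way. Signs turned only for pairs that did not pass. Within DU×IB r was -0.138 for ITGA2 and PTK2, -0.272 for ITGA6 and PTK2, -0.0696 for PTK2 and PARVA, 0.0218 for ITGAV and PTK2 and 0.191 for ITGAV and PARVA. Centred within series only, the last 2 pairs had 0.238 and 0.176, and in the series of 12 they had 0.125 and 0.396. By Spearman ITGAV and PTK2 had 0.0203. With 1 piglet left out these 2 pairs ran from -0.153 to 0.0894 and from -0.145 to 0.0530. Averaging several probe sets of a gene was not run, since each gene had 1 named probe set.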
